A study of Mus musculus with 6 samples.

Results

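The RhoBTB family holds the 3 genes Rhobtb1, Rhobtb2 and Rhobtb3, and it was examined here together with Cul3, which encodes the cullin that RhoBTB proteins bind. The members are the rows of the deposited count table whose Ensembl identifiers carry these symbols in the GENCODE M21 annotation, which gave 4 of 54532 genes, and all 4 passed the filter on low counts. The data are poly-A RNA of nuclei from hearts of wildtype ICR mice, which received 1e+11 viral genomes of AAV9 subcutaneously at P6 and were collected at P9, 3 d later. The virus carried GFP (the control), YAP6SA or YAP5SA, each under the cardiac troponin T (cTnT) promoter, which drives expression in cardiomyocytes (CMs). YAP5SA is a form of the transcriptional coactivator YAP in which the serines that the Hippo kinases phosphorylate are replaced by alanine, and YAP6SA carries an additional replacement that disrupts binding to the TEAD transcription factors. CM nuclei were enriched by pulldown of PCM-1, a protein of the CM nuclear envelope, so nuclei of other cells can remain. Hearts from 2 mice were collected for each virus, and each group has 2 libraries, 1 in each of 2 batches, which the labels number without saying what a batch was. With 2 libraries per group, the spread behind each p-value was estimated from few libraries and drawn towards that of other genes.

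RhoBTB proteins are atypical GTPases. They join a GTPase-like domain to BTB domains, and through these they bind CUL3, the scaffold of a class of ubiquitin ligases in which a BTB protein selects the protein to be tagged with ubiquitin. RHOBTB1 is known as a CUL3 adaptor for the cGMP-hydrolysing enzyme PDE5 in vascular smooth muscle. RHOBTB2, first described as DBC2, has been studied as a growth suppressor that CUL3 itself turns over. RHOBTB3 has a GTPase-like domain that binds and hydrolyses ATP, interacts with RAB9 on endosome-to-Golgi vesicles, and takes part in the turnover of cyclin E and HIF1A.

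On GRCm38, Rhobtb1 (ENSMUSG00000019944) lies on the plus strand at chr10:69151434-69291791, Rhobtb2 (ENSMUSG00000022075) on the minus strand at chr14:69784990-69805636, Rhobtb3 (ENSMUSG00000021589) on the minus strand at chr13:75869537-75943925, and Cul3 (ENSMUSG00000004364) on the minus strand at chr1:80264923-80340480. The longest annotated coding sequences, without the stop codon, have 2085 bases in Rhobtb1, 2184 in Rhobtb2 and 1833 in Rhobtb3. Aligned end to end, those of Rhobtb1 and Rhobtb2 share 70.0% of the aligned bases, those of Rhobtb1 and Rhobtb3 53.7%, and those of Rhobtb2 and Rhobtb3 55.5%. Reads of these relatives were told apart by such differences, so the longest stretch without a mismatch between Rhobtb1 and Rhobtb2 is shown here, with 24 bases on either side. It is 23 bases long, spans coding bases 88 to 110 in both genes (counted from the start codon) and is in capitals. It follows the bases that encode the nucleotide-binding loop of the GTPase domain, and 10 of the flanking bases differ.
Rhobtb1 coding sequence: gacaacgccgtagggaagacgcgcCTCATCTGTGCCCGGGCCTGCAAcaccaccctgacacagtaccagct
Rhobtb2 coding sequence: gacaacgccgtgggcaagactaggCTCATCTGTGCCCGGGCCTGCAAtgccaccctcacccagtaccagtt

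Searched at any position, the longest stretch without a mismatch was 11 bases between Rhobtb1 and Rhobtb3 and 16 bases between Rhobtb2 and Rhobtb3. These lay at unlike coding positions, the first at bases 1270 to 1280 of Rhobtb1 and 624 to 634 of Rhobtb3. Of all stretches of 50 bases in the annotated transcripts, 0 of 6204 in Rhobtb1, 0 of 5873 in Rhobtb3 and 0 of 5006 in Cul3 occurred in transcripts of another gene, and 5 of 10117 in Rhobtb2 also occurred in Zmym5. Counts of these genes were therefore nearly free of shared sequence.

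RefSeq start sites on GRCm38.p6 were listed for Rhobtb1 (3), Rhobtb3 (1) and Cul3 (1), and Rhobtb2 had no entry. The 250 bases before each were searched on both strands for the TEAD core GGAATG, for the CArG box bound by SRF and for the cAMP response element half-site TGACG, which 12.6%, 1.47% and 17.8% of all 32851 such windows hold. Since YAP6SA and YAP5SA differ in TEAD binding, the windows of the most abundant RhoBTB gene and of Cul3 are shown, those that overlap no annotated exon, 5′ to 3′ on the strand of the gene, with the TEAD core in capitals. For Rhobtb1 this is the first of its 3 windows, at chr10:69208302-69208551 on the plus strand, and for Cul3 it is chr1:80340691-80340940 on the minus strand. All 3 Rhobtb1 windows lie within the annotated gene, which begins upstream of them at base 69151434. The bases before that annotated start were not searched.
Rhobtb1 promoter: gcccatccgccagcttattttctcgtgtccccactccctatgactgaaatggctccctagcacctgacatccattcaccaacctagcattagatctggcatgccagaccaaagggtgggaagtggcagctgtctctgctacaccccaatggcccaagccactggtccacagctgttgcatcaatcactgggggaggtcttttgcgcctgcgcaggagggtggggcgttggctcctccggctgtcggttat
Cul3 promoter: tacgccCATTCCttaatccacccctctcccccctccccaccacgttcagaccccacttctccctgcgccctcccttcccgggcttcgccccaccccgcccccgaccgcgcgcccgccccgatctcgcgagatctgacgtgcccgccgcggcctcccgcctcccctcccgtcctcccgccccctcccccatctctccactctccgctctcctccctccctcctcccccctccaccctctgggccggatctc

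The TEAD core occurred once in the Cul3 window, 244 bases before the start on the opposite strand (CATTCC), and in none of the 3 Rhobtb1 windows or the Rhobtb3 window. The half-site TGACG occurred once in the Cul3 window, 117 bases before the start, and once in the third Rhobtb1 window, 141 bases before its start. No CArG box was found in any of the 5 windows. A match describes letters in a window and is not evidence of binding.

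The gene counts numbered 14552847 to 19615627 per library, and 22.0% to 23.4% of a library was unmapped, multimapping, ambiguous or outside genes and was left out. Levels are given as CPM (gene counts scaled to the library size, so that all libraries have the same total), adjusted with TMM factors, which correct for differences in library composition. Yap1 itself, whose variants were delivered, had 1828 to 2647 counts. It differed from GFP by -0.09 on the log2 scale under YAP6SA and by -0.17 under YAP5SA (FDR 0.952 and 0.495), so the delivered transcripts were not visible in its counts. Of the 8 CM markers, none was at 0, and their summed level ran from 50897 to 67567 CPM in the GFP and YAP6SA libraries and was 44450 and 31657 CPM in the YAP5SA libraries. Markers of other cells were also present, with 714 to 1398 CPM for 7 fibroblast markers, 464 to 688 for 7 endothelial, 61.1 to 118 for 8 macrophage and 180 to 253 for 5 mural markers. The 6 smooth muscle markers summed to 1199 and 1226 CPM in GFP and to 1843 to 2513 CPM in the variant libraries. Of these, Acta2, which CMs can also express, was raised in both variants (FDR 0.00222 in YAP6SA and 8.0e-05 in YAP5SA). It had 271 and 141 CPM in GFP, 1553 and 1251 in YAP6SA, and 1835 and 1347 in YAP5SA. Smtn, the largest part of the GFP sum, did not rise with it. Its levels were 911 and 1077 CPM in GFP, 849 and 1131 in YAP6SA, and 648 and 475 in YAP5SA. Of 4 markers tested, 3 were higher and 1 lower in YAP5SA (FDR under 0.05), beside 12.8% and 9.18% of all genes. In YAP6SA 1 was higher, beside 0.045% of all genes. Myh11 had 14.2 and 6.05 CPM in GFP, 13.9 and 7.07 in YAP6SA, and 21.3 and 16.4 in YAP5SA. Cnn1 had 1.83 and 0.716 CPM in GFP, 4.41 and 1.51 in YAP6SA, and 4.75 and 3.01 in YAP5SA. The part of smooth muscle cells was not tested. In such bulk samples, fewer nuclei of a type and less RNA per nucleus cannot be told apart.

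In the GFP libraries, all 4 members were expressed, and Rhobtb1 was the most abundant. Per kilobase of annotated exon, the mean GFP level was 24.9 ± 4.78 CPM for Rhobtb1 (SD, n = 2), 14.6 ± 1.15 for Cul3, 7.37 ± 0.265 for Rhobtb3 and 4.55 ± 0.335 for Rhobtb2. These levels were above those of 85.2%, 73.9%, 56.5% and 44.3% of the genes tested, in the same order. On this scale, the order Rhobtb1, Cul3, Rhobtb3, Rhobtb2 held in each of the 6 libraries. Neighbours in it were separated by more than the spread between the GFP libraries. With the longest transcript as the length, the mean GFP levels were 34.2, 15.1, 8.56 and 7.97 CPM per kilobase in the same order. Rhobtb3 and Rhobtb2 thus lay close together, and the order of these genes depends on the length used. Their order in single libraries was not worked out on that length. For comparison, Cul1 had the highest mean GFP level of the 8 cullins, with 45.3 CPM per kilobase.

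Rhobtb1 was counted 2491 times in GFP batch 1 and 2636 times in GFP batch 2, against 7357 and 3077 times under YAP6SA and 3597 and 4376 times under YAP5SA (batch 1 first, here and below). These correspond to 131 and 172 CPM in GFP, 373 and 186 in YAP6SA, and 237 and 244 in YAP5SA. Every library of either variant lay above both GFP libraries, and the YAP6SA library of batch 1 stood far above the other 5. The 95% Poisson intervals, which cover counting error only, were 364 to 382 CPM for that library and 179 to 193 CPM for the YAP6SA library of batch 2.

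Rhobtb2 had 834 and 745 counts in GFP, 673 and 614 in YAP6SA, and 419 and 634 in YAP5SA, or 43.7 and 48.5 CPM, 34.1 and 37.1 CPM, and 27.7 and 35.4 CPM. Both GFP libraries lay above all 4 libraries of the variants. Rhobtb3 had 834 and 638 counts in GFP, 781 and 700 in YAP6SA, and 796 and 1187 in YAP5SA, or 43.7 and 41.5 CPM, 39.6 and 42.3 CPM, and 52.5 and 66.3 CPM. The 2 YAP5SA libraries lay above the other 4, which differed little. The share of all genes whose libraries part in these ways, as for Rhobtb1, Rhobtb2 and Rhobtb3, was not worked out. Cul3 had 1430 and 1029 counts in GFP, 1641 and 1137 in YAP6SA, and 1378 and 1322 in YAP5SA, or 74.9 and 67.0 CPM, 83.2 and 68.7 CPM, and 90.9 and 73.8 CPM. Its groups overlapped in every comparison, and the library of batch 1 was the higher one in each group.

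**Figure D1:**
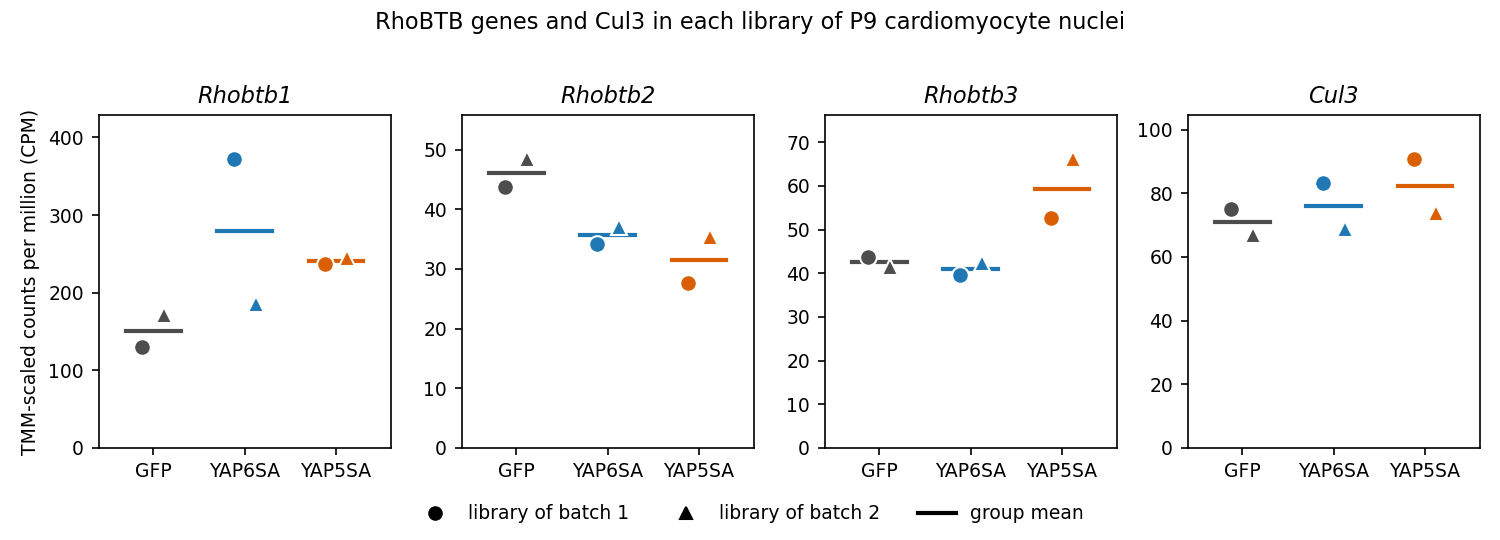
TMM-scaled CPM (vertical axis, from 0, with its own scale for each gene) of Rhobtb1, Rhobtb2, Rhobtb3 and Cul3 in the GFP, YAP6SA and YAP5SA groups, with a circle for the batch 1 library, a triangle for the batch 2 library and a line for the mean of the group. Rhobtb1 reached 373 CPM in the YAP6SA library of batch 1 and 186 CPM in that of batch 2, Rhobtb2 was highest in GFP, and Rhobtb3 was highest in YAP5SA.

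Whether YAP6SA, the form that does not bind TEAD, changed these genes was asked by comparing it with GFP. None of the 4 members passed the threshold, a Benjamini-Hochberg adjusted p (FDR) under 0.05 over 13323 genes in edgeR's quasi-likelihood test. Rhobtb1 had the largest difference of the family, a log2 fold change of 0.85 (standard error 0.27, 95% interval 0.24 to 1.45), or 1.80-fold, with FDR 0.687. In this comparison, 6 genes (0.045%) were called higher and 0 genes (0%) were called lower, and 514 and 276 genes had an unadjusted p under 0.05. Rhobtb2 had a log2 fold change of -0.37 (standard error 0.17, FDR 0.839), with -0.36 in batch 1 and -0.39 in batch 2. Rhobtb3 differed by -0.06 (95% interval -0.43 to 0.31, FDR 0.969) and Cul3 by 0.09 (95% interval -0.23 to 0.41, FDR 0.947). The YAP6SA and GFP libraries did not overlap for Rhobtb1 and Rhobtb2, as for 34.3% of all genes tested.

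The Rhobtb1 difference rested mainly on batch 1. Within batch 1, the YAP6SA library was 1.51 higher than the GFP library on the log2 scale, a difference larger than in 99.5% of the genes tested and exceeded by 60 genes. Within batch 2 the difference was 0.12, larger than in 64.3% of the genes. The 2 YAP6SA libraries differed by 1.00 for Rhobtb1, more than in 95.4% of the genes, whose median absolute difference was 0.238. The other 3 members differed between these libraries by 0.28 or less in size. Without the YAP6SA library of batch 1, the Rhobtb1 log2 fold change was 0.20, and without the GFP library of batch 1 it was 0.40, whereas it was 1.42 and 1.28 without those of batch 2. None of these 4 fits called it (FDR 0.0807 to 1). It was called when genes with low counts were kept (FDR 7.3e-04) and when only the 4 libraries compared were fitted (FDR 0.0195). The scatter of Rhobtb1 around the fit was 6.55 times that of the fitted dispersion trend, before the moderation that drew it to 1.85, while the values before moderation were 0.164, 0.479 and 0.0699 for Rhobtb2, Rhobtb3 and Cul3.

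**Figure D2:**
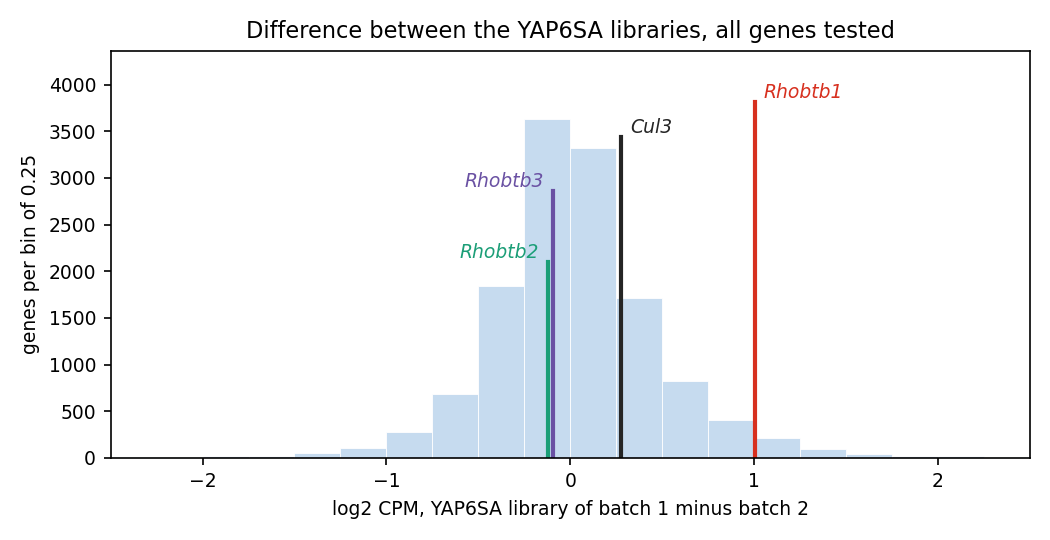
Histogram of the log2 CPM difference between the YAP6SA libraries of batch 1 and batch 2 (horizontal axis) over all genes tested (vertical axis, genes per bin of 0.25), with vertical lines at the members. Rhobtb1 lies at 1.00, beyond 95.4% of the genes in size, and the other 3 members lie near the centre.

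Some marker sums were also high in the YAP6SA library of batch 1. It had the highest summed level of the 7 fibroblast markers, 1398 CPM against 1050 in the GFP library and 1139 in the YAP5SA library of the same batch, and 714 to 777 CPM in the libraries of batch 2. It was also highest in the 7 endothelial markers, with 688 CPM against 464 to 610 in the others, and in the 5 mural markers, with 253 CPM against 180 to 225. The 5 erythroid markers were highest there too, with 63.8 CPM against 24.7 to 59.2 in the others. The macrophage markers were not highest there, with 74.5 CPM against 61.1 to 118 in the others. Nor were the 8 CM markers, with 50897 CPM against 31657 to 67567 in the others. The fibroblast, endothelial and mural sums were higher in batch 1 than in batch 2 in every group. Rhobtb1 was lower in batch 1 in GFP and YAP5SA. The part of other cells in the Rhobtb1 difference was not tested. A930033H14Rik, a gene on the opposite strand at chr10:69209762-69213098 within Rhobtb1, shares 15 exon bases with it, and since the libraries were non-directional, reads from the 2 strands cannot be told apart. It had 68 and 29 counts in GFP, 194 and 77 in YAP6SA, and 227 and 119 in YAP5SA. It differed by 1.39 in YAP6SA (standard error 0.32, FDR 0.335) and rose by 1.95 in YAP5SA (standard error 0.32, FDR 0.00343). The other genes that overlap a member had at most 35 counts in all libraries together.

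The effect of YAP5SA, which keeps TEAD binding, was likewise read against GFP. Rhobtb2 was the only member called, with a log2 fold change of -0.55 (standard error 0.17, 95% interval -0.93 to -0.18), or 0.681-fold, at FDR 0.0420. It was lower by a similar amount in both batches, with -0.66 and -0.45. In this comparison 12.8% of the genes were called higher and 9.18% lower, so 1 lower member of 4 has to be read against a common outcome. The call was close to the threshold: the FDR was 0.0573 without the filter on low counts, 0.0615 with DESeq2, 0.0824 without the replicate block and 0.0794 when only the 4 libraries compared were fitted. It was also lost without either GFP library (FDR 0.245 and 0.239 without batch 1 and batch 2) and without the YAP5SA library of batch 1 (0.0910), with log2 fold changes of -0.50, -0.60 and -0.44.

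The other RhoBTB genes had positive differences that missed the threshold. Rhobtb1 had a log2 fold change of 0.66 (standard error 0.27, 95% interval 0.06 to 1.27, FDR 0.110), and the batches gave 0.86 and 0.51. It was called when genes with low counts were kept (FDR 0.00144), when only the 4 libraries compared were fitted (0.0254) and without the YAP5SA library of batch 1 (log2 fold change 0.83, FDR 0.0159), and it was 0.28 without the GFP library of batch 1 and 1.15 without that of batch 2. Rhobtb3 had a log2 fold change of 0.47 (standard error 0.17, 95% interval 0.10 to 0.84, FDR 0.0686), with 0.27 and 0.67 in the batches, and was called only without the YAP5SA library of batch 1 (0.64, FDR 0.0108). Cul3 had 0.21 (standard error 0.14, 95% interval -0.11 to 0.53, FDR 0.324). The YAP5SA and GFP libraries did not overlap for the 3 RhoBTB genes and overlapped for Cul3, and 60.9% of all genes tested did not overlap. In the YAP5SA libraries the summed CM markers were below their GFP level, and their part in the Rhobtb2 difference was not tested.

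**Figure D3:**
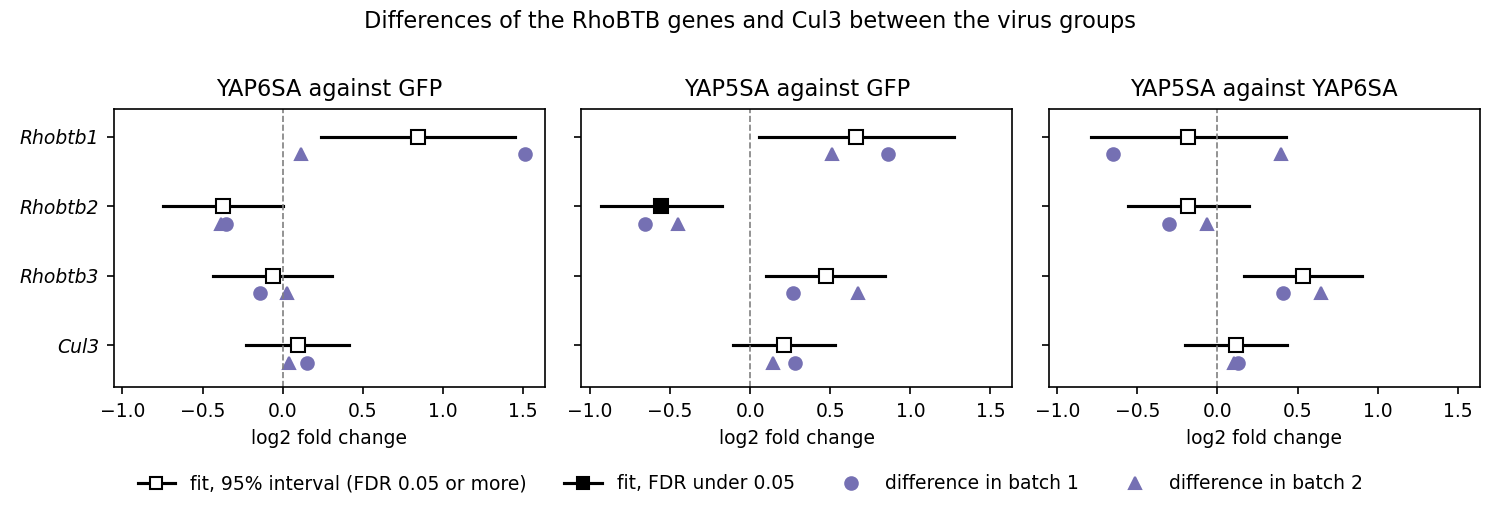
Log2 fold changes (horizontal axis) of the 4 members in the 3 comparisons, with squares for the fit of all 6 libraries, lines for its 95% interval, a filled square for FDR under 0.05, and circles and triangles for the differences within batch 1 and batch 2. Rhobtb2 in YAP5SA against GFP (-0.55) is the only filled square, and the batches lie far apart for Rhobtb1 in YAP6SA against GFP (1.51 and 0.12).

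The variants were compared directly to see where they part. No member passed the threshold, while 9% of the genes were called higher in YAP5SA and 5.68% lower. Rhobtb3 came closest, with a log2 fold change of 0.53 (standard error 0.17, 95% interval 0.16 to 0.90, FDR 0.0587) and differences of 0.41 and 0.65 within the batches. It was called by the likelihood ratio test (FDR 0.0386) and without the YAP5SA library of batch 1 (log2 fold change 0.70, FDR 0.00661). Rhobtb1 differed by -0.18 (95% interval -0.79 to 0.42, FDR 0.702), and its sign turned between the batches, with -0.65 in batch 1 and 0.39 in batch 2. Without the YAP6SA library of batch 1 it was 0.49. Rhobtb2 differed by -0.18 (95% interval -0.56 to 0.19, FDR 0.507) and Cul3 by 0.12 (95% interval -0.20 to 0.44, FDR 0.628). The YAP5SA and YAP6SA libraries did not overlap for Rhobtb3 only, against 57.6% of all genes tested. Both variants were compared with the same GFP libraries, so their differences from GFP are not independent of each other.

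The makeup of the family moved with these levels. On the scale per exon length, Rhobtb1 made up 64.4% and 70.2% of the summed RhoBTB level in the GFP libraries, 85.7% and 73.6% in YAP6SA, and 76.8% and 72.9% in YAP5SA. The ratio of Rhobtb1 to Rhobtb2 per length was 4.98 and 5.90 in GFP, 18.2 and 8.35 in YAP6SA, and 14.3 and 11.5 in YAP5SA. Each variant library had a ratio above both GFP libraries, also the YAP6SA library of batch 2. This follows from the levels above, with Rhobtb1 higher and Rhobtb2 lower than in GFP in every variant library, and adds no separate observation. The ratio of Rhobtb1 to Rhobtb3 was 2.84 and 3.93 in GFP, 8.96 and 4.18 in YAP6SA, and 4.30 and 3.51 in YAP5SA, where the YAP5SA and GFP libraries overlapped. No test was run on these ratios.

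**Figure D4:**
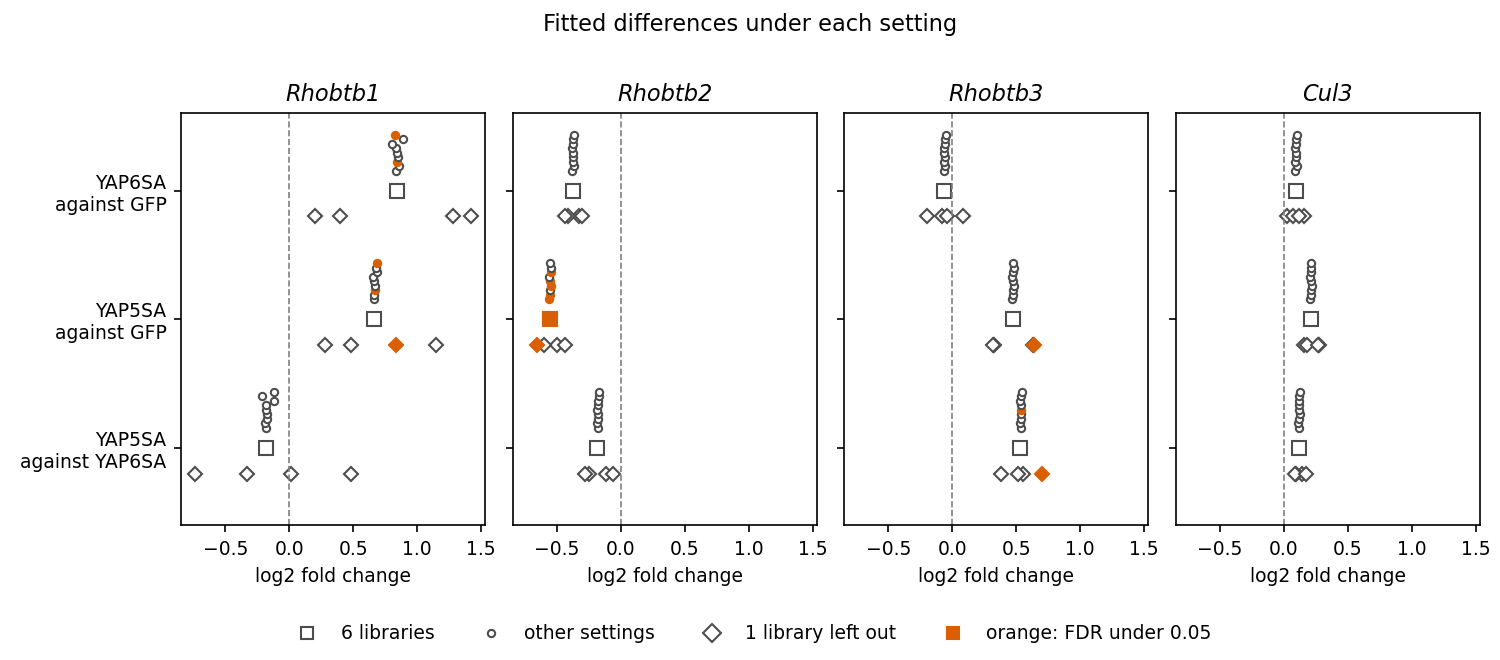
Log2 fold changes (horizontal axis) of each member in the 3 comparisons under the fit of all 6 libraries (squares), 9 other settings (small circles, spread vertically) and fits with 1 library left out (diamonds), with orange for FDR under 0.05. Leaving out a library moved Rhobtb1 most, from 0.20 to 1.42 in YAP6SA against GFP, and moved Cul3 least, within 0.03 to 0.16 there.

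The partners of the RhoBTB proteins were followed in 5 lists, with 77 genes tested. Over all genes tested, 0.045% were called in YAP6SA against GFP, 22% in YAP5SA against GFP and 14.7% in YAP5SA against YAP6SA, in either direction. The 5 lists together had 0%, 22.1% and 18.2%, so their shares lay near those of all genes.

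The machinery that CUL3 shares with other cullins was measured by 21 genes, all tested. In YAP6SA against GFP none was called, and the median log2 fold change was -0.01, against 0.00 over all genes tested. Rbx1, the RING protein that recruits the ubiquitin-conjugating enzyme to the cullin, differed by 0.02 in YAP6SA (FDR 0.991) and by 0.12 in YAP5SA (FDR 0.613). In YAP5SA, 1 gene rose and 3 fell, a share of 19% beside the 22% of all genes. Dcun1d4, which promotes the attachment of NEDD8 to cullins, rose by 1.60 (FDR 6.8e-04), from 30.0 and 33.1 CPM in GFP to 73.1 and 125 CPM. Its relative Dcun1d2 fell by 0.81 (FDR 0.0126), from 227 and 238 CPM to 152 and 113 CPM. Cand2, a muscle-expressed factor that exchanges cullin adaptors, fell by 0.93 (FDR 0.00268), and Uba3, a subunit of the NEDD8-activating enzyme, fell by 0.54 (FDR 0.0304). Dcun1d4 (1.83) and Cand2 (-0.75) were also called in YAP5SA against YAP6SA. None of the other 7 cullins was called in any comparison, and in YAP5SA against GFP their log2 fold changes ran from -0.39 to -0.19, against 0.21 for Cul3.

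The BTB adaptors, which compete with RhoBTB proteins for CUL3, were covered by 34 genes outside muscle-specific kelch proteins, all tested. None was called in YAP6SA against GFP, where the median was 0.00. In YAP5SA against GFP, 5 rose and 2 fell, with a median of 0.01 and a share of 20.6% beside the 22% of all genes. Enc1, a kelch protein of the actin cytoskeleton, rose most, by 4.35 (FDR 0.00186), with 108 and 25 counts in GFP against 586 and 1798 in YAP5SA. Klhl13, an adaptor for Aurora B in mitosis, rose by 1.22 (FDR 0.0258), Klhl2 by 1.20 (FDR 0.0259) and Kctd5 by 1.13 (FDR 0.00628). Tnfaip1, one of the adaptors that direct CUL3 to RHOA, rose by 0.86 (FDR 0.00795), with 53.2 and 56.4 CPM in GFP, 66.2 and 51.8 in YAP6SA, and 91.5 and 107 in YAP5SA. Its relatives Kctd10 and Kctd13 differed by 0.28 and 0.31 and were not called (FDR 0.648 and 0.447). Ivns1abp, by far the most abundant gene of this list, fell by 1.30 (FDR 0.00791), from 9429 and 9651 CPM in GFP to 4483 and 3320 CPM in YAP5SA. It had 7347 and 8146 CPM in YAP6SA. Whether its protein binds CUL3 in these cells was not measured. Klhl3, which directs CUL3 to WNK kinases, fell by 1.06 (FDR 0.0292). Keap1, the adaptor for NRF2, differed by 0.06 in YAP6SA and -0.30 in YAP5SA and was called in neither (FDR 0.967 and 0.188). In YAP5SA against YAP6SA, 5 adaptors were higher and 2 lower (20.6%, beside 14.7% of all genes), with Enc1 (3.72), Kbtbd8 (1.61), Kctd5 (1.14) and Tnfaip1 (0.75) the largest of the higher ones, and Ivns1abp (-0.998) and Klhl7 (-0.86) the lower ones.

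Of 7 muscle kelch proteins, 6 were tested, and none was called in YAP6SA against GFP. In YAP5SA against GFP, Klhl30 rose by 0.78 (FDR 0.00789), while Klhl38 fell by 0.95 (FDR 0.0244), Klhl31 by 0.72 (FDR 0.0157) and Kbtbd12 by 0.67 (FDR 0.0340). Their median was -0.69, and 4 of 6 were called (66.7%), beside 22% of all genes. The list is short and was given no test of its own. In this comparison Klhl38 was called under all 9 other settings, and Klhl30, Klhl31 and Kbtbd12 each under 8 of 9. Without the replicate block, the 5 lists together had 13 rather than 17 called genes. The share of the muscle kelch list under that setting was not worked out. Klhl30, Klhl31 and Kbtbd12 were also called in YAP5SA against YAP6SA, with 1.00, -0.86 and -0.80.

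Of 11 known partners and targets of the RhoBTB proteins, 9 were tested, and again none was called in YAP6SA against GFP. In YAP5SA against GFP, 2 were called (22.2%, beside 22% of all genes). E2f1, a cell cycle transcription factor described as an activator of RHOBTB2, rose by 2.81 (FDR 5.2e-04), with 3.88 and 3.19 CPM in GFP and 20.8 and 28.9 in YAP5SA. Ccne1, which encodes the cyclin E that RHOBTB3 helps to degrade, rose by 2.16 (FDR 0.00468), with 3.93 and 2.99 CPM in GFP, 4.56 and 4.95 in YAP6SA, and 10.6 and 21.8 in YAP5SA. Both were called in YAP5SA against YAP6SA as well (2.50 and 1.73). Pde5a, the target of RHOBTB1, was low, with 37 to 111 counts per library, and differed by 0.67 in YAP6SA (standard error 0.38, FDR 0.871) and by 0.29 in YAP5SA (FDR 0.626). Lrrc41, a binding partner of RHOBTB2, differed by -0.11 in YAP6SA (FDR 0.957) and -0.51 in YAP5SA (FDR 0.123). Rab9, the GTPase bound by RHOBTB3, differed by -0.30 and -0.11 (FDR 0.911 and 0.800).

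**Figure D5:**
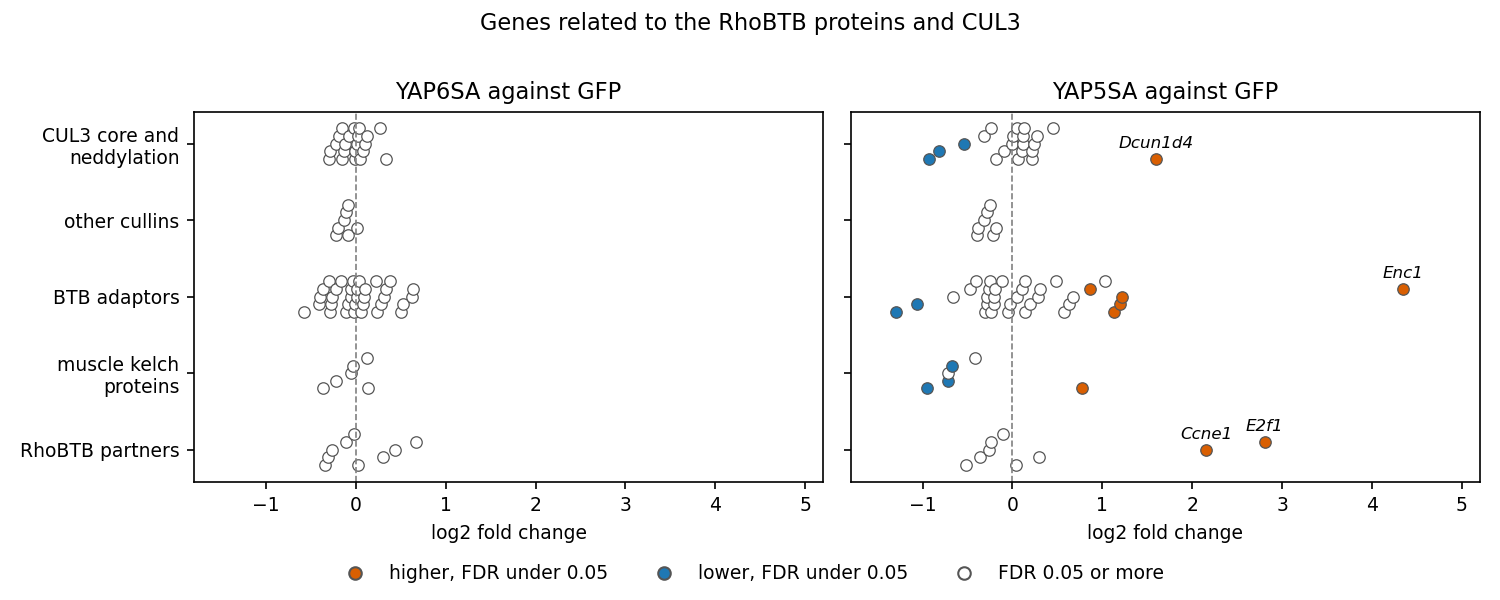
Log2 fold changes (horizontal axis) of the tested genes of the 5 lists (rows) in YAP6SA against GFP and in YAP5SA against GFP, with a point for each gene, orange for higher and blue for lower at FDR under 0.05, and open points for the rest. No list gene was called in YAP6SA, and 17 of 77 (22.1%, beside 22% of all genes) were called in YAP5SA, where Enc1 (4.35), E2f1 (2.81), Ccne1 (2.16) and Dcun1d4 (1.60) are named.

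Of the 17 list genes called in YAP5SA against GFP, 13 were called under all 9 other settings in which they could be fitted. Without the GFP library of batch 2 only 4 list genes were called, without the YAP5SA library of batch 2 11, and without that of batch 1 25. The genes called in each of the 4 fits with a library left out were Enc1, Cand2, Dcun1d4 and E2f1. In YAP5SA against YAP6SA, 14 list genes were called (18.2%, beside 14.7% of all genes), with 3 without the YAP6SA library of batch 2, 9 without that of batch 1 and 22 without the YAP5SA library of batch 1.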

How the data were processed

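Non-directional libraries were made from poly-A RNA of enriched nuclei, from 2 hearts per virus. The authors aligned them to mm10 with STAR and the Ensembl GRCm38 annotation (the STAR version and the counting settings are not given in the sources used here), and the values they deposited are raw counts, neither scaled nor filtered. Rows for unmapped, multimapping, ambiguous and no-gene reads (22.0% to 23.4% of a library) were left out here. Columns were matched to samples by the library names in the labels, and groups came from the treatment labels.

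Genes were kept when the median log2 CPM exceeded 1 in at least 1 of the 3 groups (13323 genes), as the methods of the study state. Counts were fitted with edgeR 4.0.16 in R 4.3.3 (TMM, quasi-likelihood test) in one model of all 6 libraries with batch and group. P-values were adjusted by Benjamini-Hochberg over the 13323 genes (FDR), and the threshold was 0.05. Log2 CPM for differences within a batch used a prior count of 2. The depth makes 3 counts the limit for a gene at 0, for counting error only. Biopython 1.88 aligned the coding sequences. The batch number in the labels is also the replicate number, so it pairs the libraries, and deviations from the group mean correlated across genes within a batch, at 0.368 (GFP and YAP6SA), 0.0985 (GFP and YAP5SA) and 0.175 (YAP6SA and YAP5SA). Replicates differed by 25.3 to 39.6 times sampling noise, as chi-square over its degrees of freedom, so none was a copy.

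The members, lists, rules and alternatives were chosen with earlier results of these data known. Besides the members, the genes named were the called genes of each list with the largest change, at most 4 in each direction, genes named whatever their values (Rbx1, Keap1, Kctd10, Kctd13, Tnfaip1, Pde5a, Lrrc41, Rab9 and Ccne1), and the 3 genes most like each member in pattern. One further list was not used here. A930033H14Rik was named for its overlap, and Cul1 and Klhl21 after their values were seen. The alternatives were other scalings (RLE, upper quartile), other filters, the likelihood ratio test, DESeq2 1.42.0, limma-voom 3.58.1, no batch term, fits of 4 libraries, and each library left out. On simulated counts for YAP5SA against GFP with 12988 genes, 70 of 100 genes changed 2-fold and 98 of 100 changed 4-fold were recovered, with 8 false calls. The simulated scatter followed the dispersion trend, with no batch effect and only 200 changed genes. These rates therefore do not cover scatter like that of Rhobtb1, or changes under 2-fold such as those of the members.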

Additional observations from a re-analysis of the deposited data

How the results depend on the processing

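Differences of the members kept their direction under the 9 settings that used all libraries of the groups compared, and Rhobtb2 in YAP6SA and Cul3 in all comparisons changed neither direction nor call under any setting run. Rhobtb1 passed the threshold with no filter on low counts (0.84 in YAP6SA and 0.67 in YAP5SA against GFP) and in fits of 4 libraries (0.83 and 0.69). Rhobtb2 in YAP5SA against GFP missed it with no filter (-0.55), DESeq2 (-0.56), no replicate block (-0.55) and 4 libraries (-0.56). Rhobtb3 in YAP5SA against YAP6SA passed it with the likelihood ratio test (0.53). The cause of these changes was not tested.

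With 1 library left out, the remaining library of its group is assumed to vary like the others. The log2 fold changes of Rhobtb1 then ran from 0.20 to 1.42 in YAP6SA against GFP, from 0.28 to 1.15 in YAP5SA against GFP and from -0.74 to 0.49 in YAP5SA against YAP6SA, where the sign turned without the YAP6SA library of batch 1 (0.49) and the YAP5SA library of batch 1 (0.02). Those of Rhobtb2 in YAP5SA against GFP ran from -0.65 to -0.44. Those of Rhobtb3 ran from -0.20 to 0.09 in YAP6SA against GFP, with the sign turned without the GFP library of batch 1 (0.0859), from 0.32 to 0.64 in YAP5SA against GFP and from 0.38 to 0.70 in YAP5SA against YAP6SA.

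Counts of genes called moved more. For YAP6SA against GFP, 6 genes were called, against 145 with no filter, 82 with the likelihood ratio test, 54 with DESeq2, 276 in the fit of 4 libraries and 0 without the replicate block, with 6 to 12 when a library was left out. For YAP5SA against GFP, 2931 were called, with 738 to 4863 when a library was left out. For YAP5SA against YAP6SA, 1956 were called, against 1152 without the replicate block and 396 to 4160 when a library was left out. Without the block, 13 rather than 17 list genes were called in YAP5SA against GFP, and 10 rather than 14 in YAP5SA against YAP6SA. In YAP6SA against GFP, 1 list gene, Klhl21 (log2 fold change 0.64, FDR 0.611 with all 6 libraries), was called in the fit of 4 libraries. Levels per length of Rhobtb1, Rhobtb2 and Rhobtb3 in GFP moved from 24.9, 4.55 and 7.37 to 34.2, 7.97 and 8.56 CPM per kilobase with the longest transcript as the length.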

Other observations

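For each member, the genes closest in pattern were taken as those with the smallest root mean square difference of log2 CPM over the 6 libraries, after the mean of each gene was subtracted, among the 13322 other genes. The libraries share batch and depth, so this is a description and carries no test. Rhobtb1, whose own log2 CPM varied by 0.475 around its mean on this measure, was nearest to Gm15920 (difference 0.131), B930095G15Rik (0.165) and Susd2 (0.178). These 3 genes were scarce: Gm15920 had 3.09 and 3.65 CPM in GFP, 7.65 and 3.26 in YAP6SA, and 4.69 and 4.86 in YAP5SA. They share with Rhobtb1 the high value in the YAP6SA library of batch 1.

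Rhobtb2 was nearest to Zc3h13 (0.0566), which encodes a subunit of the machinery that methylates adenosine in mRNA, to the transcription factor gene Usf1 (0.0584) and to Prr12 (0.0653). Usf1 had 109 and 129 CPM in GFP, 86.1 and 104 in YAP6SA, and 74.4 and 94.0 in YAP5SA. Rhobtb3 was nearest to the deubiquitinase gene Usp32 (0.0298), Tbc1d23 (0.0434) and the ribosome biogenesis gene Wdr43 (0.0462). Usp32 had 71.8 and 70.8 CPM in GFP, 63.9 and 70.5 in YAP6SA, and 90.0 and 109 in YAP5SA. Cul3, which varied by 0.153 around its mean, was nearest to Tgs1 (0.0305), Stx1a (0.0323) and Cabp1 (0.0343).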
